A study of Danio rerio with 6 samples.

Results

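The genes described here are 10 collagen and bone formation genes of the zebrafish (Danio rerio), picked by gene symbol out of the 31624 genes of the deposited table, in which each symbol matched 1 row. They encode the 3 type I collagen chains (col1a1a, col1a1b and col1a2), 2 type V collagen chains (col5a1 and col5a2a), the type X chain col10a1a, the transcription factors Sp7, Runx2a and Runx2b, and the phosphoprotein osteopontin (spp1). RNA was sequenced from whole embryos at 72 hours post fertilization, with 3 wild type and 3 rhpn2 mutant samples. Samples of a group carry the letters a, b and c, and values are given in that order. All embryos were raised in E3 solution, and the mutants carried a knockout of rhpn2, the gene for rhophilin-2, whose allele and number of lines are not given in the labels. The labels do not say how many embryos were pooled or whether samples shared parents, so the p-values rest on a sample-to-sample spread that could be technical in part.

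Type I collagen is the main fibre of skin, tendon, fascia and bone, and in zebrafish its trimers are built from the products of 3 genes, because col1a1b encodes an additional alpha chain beside those of col1a1a and col1a2. Type V collagen joins type I in the same fibrils and limits their thickness. Osteoblasts, the cells that lay down bone matrix, depend on Runx2 and on Sp7 (osterix), which acts downstream of Runx2 in mice, while type X collagen marks hypertrophic cartilage and, in zebrafish, also osteoblasts. At this stage bone is only beginning to form, and skin and other connective tissue also make type I collagen.

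The libraries held 14918069 to 17056923 counts, and 20032 genes passed the filter on low counts. Expression of rhpn2 itself was lower in every library labelled mutant, at 23.0% of wild type (95% interval 19.7% to 26.9%, adjusted p 5.04e-08 by edgeR). Of all counts, the 10 genes together made up 0.991% to 1.16% per wild type library, while the mutants had 0.990% to 1.01%. In whole embryos, fewer cells of a type and less RNA per cell cannot be told apart.

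Most of these genes did not pass the test between mutants and wild type. All 10 were tested with edgeR's quasi-likelihood test, and 1 of them, col5a2a, was lower in mutants at a Benjamini-Hochberg adjusted p below 0.05, while none was higher. Over all genes tested, 33.2% passed, 16.7% lower and 16.5% higher, so the share of members called (10%) was below the background. Unadjusted p was below 0.05 for 2 members, col1a2 and col5a2a, against 43.9% of all genes. DESeq2 called 3 members lower and none higher, beside 5969 of 26356 genes (22.65%) called in either direction. Those 26356 are all genes with a count in any library, without the low-count filter behind the 33.2%, so the 2 shares have unlike bases. The median log2 change of the members was -0.20, beside 0.01 over all genes, and the median size of change regardless of direction was 0.23, beside 0.30 over all genes.

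The collagen genes and the bone regulators lay far apart in level. On the FPKM scale, in which counts are scaled by exon length and library total, the order of mean level was col1a1a (788), col1a1b (385), col1a2 (348), col10a1a (125), col5a2a (106) and col5a1 (73.9), followed by spp1 (1.67), runx2b (1.32), runx2a (1.09) and sp7 (0.907). The step from col5a1 to spp1 was 44.2-fold. Ranges over the 6 samples overlapped between col1a1b and col1a2 and between col10a1a and col5a2a, although in both pairs the order held in 6 of 6 samples. Among the 4 lowest genes every neighbouring pair overlapped, so their order is not fixed by these data. Of all 31624 genes, col1a1a ranked 106 by mean FPKM and sp7 ranked 18004. Unless a setting is named, log2 changes and folds between groups come from edgeR with TMM (trimmed mean of M-values) scaling. FPKM are scaled by library total instead, so ratios of the FPKM printed beside those changes differ from them.

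**Figure D1:**
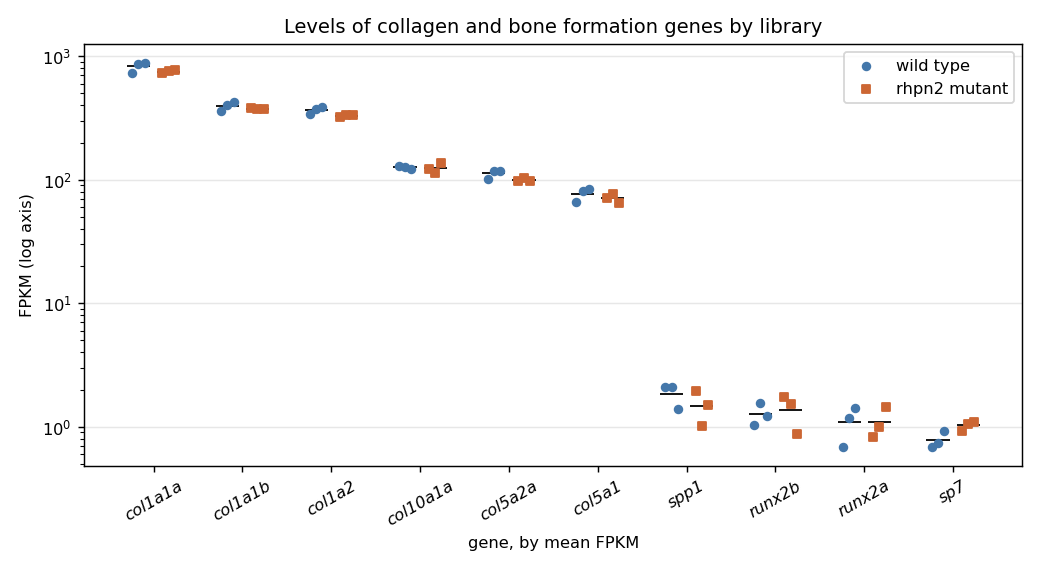
FPKM of each gene (log axis) in the 3 wild type libraries (blue circles) and the 3 rhpn2 mutant libraries (orange squares), with black bars for group means. The 6 collagen genes lie at 65.1 FPKM or above in every library, spp1, runx2a, runx2b and sp7 lie at 2.09 FPKM or below, and mutants and wild type lie side by side at every level.

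The gene col1a1a (ENSDARG00000012405, chromosome 3, 23090499 to 23108910, plus strand), which encodes the alpha 1 chain of type I collagen, had 734, 867 and 878 FPKM in wild type. In mutants it had 725, 754 and 771 FPKM. Every mutant lay below wild type b and c, but mutants b and c lay above wild type a, so the groups overlapped. The log2 change was -0.24 with an SE of 0.12, and the adjusted p was 0.125 by edgeR. The 95% interval of the mutant level ran from 70.9% to 101% of wild type.

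The duplicate gene col1a1b (ENSDARG00000035809, chromosome 12, 3060966 to 3098750, minus strand) had 360, 400 and 424 FPKM in wild type against 384, 370 and 371 in mutants. All 3 mutant values lay inside the wild type range. The log2 change was -0.18 (SE 0.10, adjusted p 0.199), and the interval ran from 75.6% to 103% of wild type.

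The gene col1a2 (ENSDARG00000020007, chromosome 19, 41396101 to 41415860, plus strand), for the alpha 2 chain, had 342, 374 and 384 FPKM in wild type against 324, 333 and 333 in mutants. It was the sole member whose groups did not overlap in FPKM, with every mutant lower, where 17.3% of all genes tested had every mutant lower and 49.0% did not overlap in either direction. Its log2 change was -0.26 (SE 0.10), and its adjusted p of 0.0688 missed the threshold. The interval ran from 71.6% to 97.5% of wild type. Genes on the opposite strand overlap the spans of col1a1a and col1a2, with 1145 and 110 counts in all.

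The balance between the type I chains was nearly the same in both groups. The FPKM ratio of col1a1a plus col1a1b to col1a2 was 3.20, 3.38 and 3.39 in wild type against 3.43, 3.37 and 3.43 in mutants. The mean log2 ratio was 1.73 ± 0.05 (SD, n = 3) in wild type and 1.77 ± 0.01 in mutants, a difference of 0.04 with an exact two-sided permutation p of 0.3. Within the col1a1 pair, col1a1b made up 32.4% ± 0.676 (SD, n = 3) of the FPKM in wild type and 33.3% ± 1.14 in mutants (exact permutation p 0.4). The smallest p that 3 samples against 3 allow is 0.1.

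Of the type V chains, col5a2a (ENSDARG00000031678, chromosome 9, 42851401 to 42894621, minus strand) was the member that passed. It had 101, 118 and 118 FPKM in wild type against 97.5, 103 and 97.0 in mutants. Mutant b lay above wild type a, and the other 2 mutants lay below every wild type sample. The mean was 112 ± 9.55 FPKM (SD, n = 3) in wild type and 99.1 ± 3.20 in mutants, and the log2 change was -0.29 (SE 0.09, adjusted p 0.0332 by edgeR), a level 1.22-fold lower with an interval of 71.2% to 94.4% of wild type. The call was kept in 5 of 15 alternatives and lost in 10, among them scaling by library totals (adjusted p 0.134) and leaving out wild type b or c or any 1 mutant (0.0689 to 0.123).

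The gene col5a1 (ENSDARG00000012593, chromosome 21, 6634384 to 6803529, plus strand), whose product is the usual partner of the alpha 2 chain in the type V trimer, had 65.4, 80.6 and 83.7 FPKM in wild type. In mutants it had 71.1, 77.1 and 65.1 FPKM, so the ranges overlapped almost fully. The log2 change was -0.21 (SE 0.11, adjusted p 0.149). The FPKM ratio of col5a1 to col5a2a was 0.680 ± 0.0321 (SD, n = 3) in wild type and 0.717 ± 0.0410 in mutants, with an exact permutation p of 0.3.

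Wild type a moved with these results. It was the lowest wild type library for 5 of 5 type I and type V chains, while wild type c was the highest for 5 of 5. Without wild type a, 33.1% of all genes were called in either direction, and 48.87% of those calls were higher. Of the 10 members, 4 were then called lower. They were col1a1a (log2 change -0.30, adjusted p 0.0359), col1a2 (-0.28, 0.0299), col5a1 (-0.29, 0.0258) and col5a2a (-0.33, 0.00801). With scaling by library totals, which shifts the median log2 change of all genes to 0.11, none of the 10 was called, beside 33.95% of all genes. The log2 changes of the 6 collagen genes then lay between -0.18 and -0.02. The TMM scaling factors were 0.923, 0.974 and 0.995 in wild type and 1.07, 1.03 and 1.02 in mutants. Every wild type factor was thus below every mutant factor, with wild type a the lowest. Scaling by library totals leaves these factors out, and the log2 change of col5a2a was then -0.18, beside -0.29 with TMM. The cause of the difference in factors between groups was not tested, nor was the part of the wild type a factor alone.

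**Figure D2:**
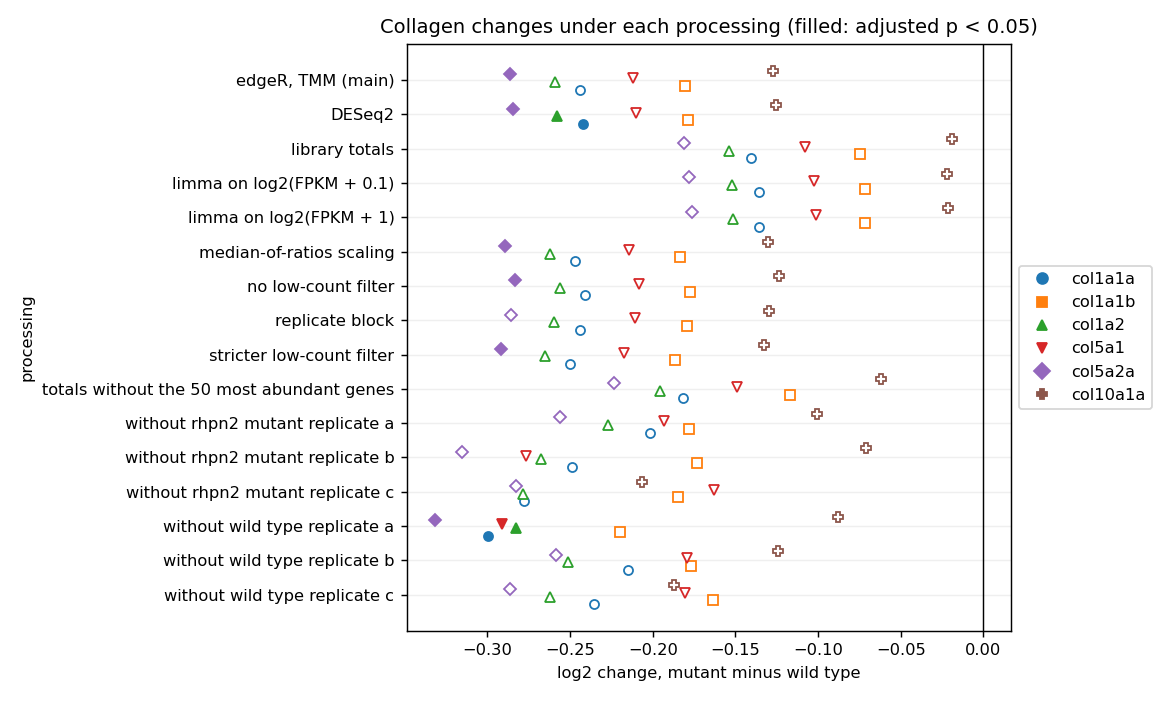
Log2 change (mutant minus wild type) of the 6 collagen genes under edgeR with TMM scaling and under 15 alternatives, 1 row each, with filled symbols for an adjusted p below 0.05. All values lie below 0, col5a2a is filled in the first row, and the row without wild type a has 4 filled genes.

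The gene col10a1a (ENSDARG00000054753, chromosome 17, 15534144 to 15538929, minus strand), which encodes a chain that forms networks rather than fibrils, showed little difference. Wild type had 128, 128 and 122 FPKM, and the mutants had 123, 114 and 135. The mutants held both the lowest and the highest value. The log2 change was -0.13 (SE 0.10, adjusted p 0.359), with an interval of 78.7% to 107% of wild type. Its FPKM ratio to col1a2 was 0.344 ± 0.0288 (SD, n = 3) in wild type and 0.377 ± 0.0319 in mutants (exact permutation p 0.2).

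The 3 bone transcription factors rested on few reads. The gene sp7 (ENSDARG00000019516, chromosome 6, 58628600 to 58679929, plus strand), required for osteoblast maturation, had 59, 62 and 80 counts in wild type against 89, 97 and 93 in mutants. In FPKM this was 0.69, 0.74 and 0.93 against 0.93, 1.05 and 1.10, so that mutant a equalled wild type c and the other mutants lay above every wild type sample. The log2 change was 0.28 (SE 0.19, adjusted p 0.270), positive in each alternative that gave a value (0.21 to 0.38) but past the threshold in none.

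The runx2 duplicates, which encode Runt domain factors at the start of osteoblast differentiation, varied more within groups than between them. The gene runx2a (ENSDARG00000040261, chromosome 17, 5194826 to 5359597, plus strand) had 18, 30 and 37 counts in wild type against 24, 28 and 37 in mutants. Its span overlaps supt3h on the minus strand (900 counts over all libraries), and as no source used here says whether counting used strand, the 2 genes may share reads. The gene runx2b (ENSDARG00000059233, chromosome 20, 44097770 to 44193546, minus strand) had 41, 61 and 49 counts in wild type and 77, 65 and 34 in mutants.

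Neither runx2 gene passed, with log2 changes of -0.12 for runx2a (SE 0.32, adjusted p 0.808) and 0.00 for runx2b (SE 0.26, adjusted p 0.992), and both signs flipped under some alternatives. The intervals ran from 56.8% to 150% of wild type for runx2a and from 67.8% to 148% for runx2b. The share of runx2b in the FPKM of the pair was 54.5% ± 7.12 (SD, n = 3) in wild type and 55.3% ± 15.7 in mutants, with an exact permutation p of 0.9. The mutants alone covered 37.7% to 67.8%.

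The gene spp1 (ENSDARG00000044276, chromosome 10, 15162592 to 15170652, minus strand), for the mineral-binding protein osteopontin, had 48, 47 and 32 counts in wild type against 50, 25 and 34 in mutants. In FPKM this was 2.09, 2.09 and 1.39 against 1.94, 1.01 and 1.5, so the groups overlapped, with mutant b lowest and wild type a and b highest. The log2 change was -0.43 (SE 0.29, adjusted p 0.268), with an interval of 48.3% to 114% of wild type. Of the members this was the largest estimate in size and among the least precise.

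**Figure D3:**
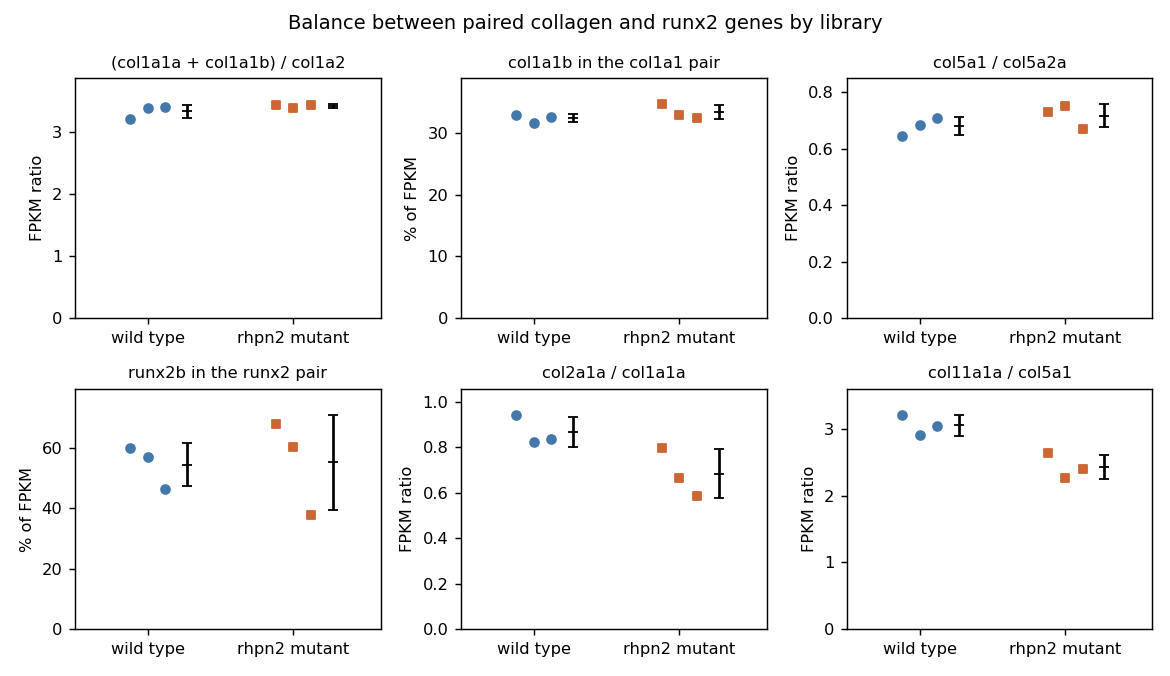
FPKM ratios or shares of gene pairs in each library (circles wild type, squares rhpn2 mutant), with group means and SD in black and axes from 0. The col1a1 to col1a2 ratio stays between 3.20 and 3.43, the runx2b share spreads from 37.7% to 67.8% within mutants, and the ratios of col2a1a to col1a1a and of col11a1a to col5a1 are lower in every mutant than in any wild type library.

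The remaining fibrillar collagen genes offered the nearest comparison. Of 11 such chains, all tested, 6 fell (54.5%) and none rose, with a median log2 change of -0.34. Over all genes, 33.2% were called in either direction and 16.7% were called lower. The cartilage chains col2a1a and col11a1a fell most clearly: col2a1a, the main collagen of cartilage and notochord sheath, had 693, 714 and 735 FPKM in wild type and 579, 502 and 454 in mutants (log2 change -0.59, SE 0.12, adjusted p 0.00215). For col11a1a, whose product is built into cartilage fibrils, wild type had 211, 235 and 255 FPKM and mutants had 187, 175 and 156 (log2 change -0.54, SE 0.11, adjusted p 0.00208). Both stayed past the threshold in all 15 alternatives.

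Further falls, given here as log2 changes, were those of col5a3b (-0.34), col11a2 (-0.38), col24a1 (-0.44) and col27a1b (-0.51). Each of these calls was lost under some alternatives. Of the 11 chains, 2 fell with library totals, 9 without wild type a, 2 without mutant b and 5 without mutant c. Without mutant a, wild type b or wild type c, 3 fell. Of all genes, 33.95% were called with library totals and 33.09% without wild type a, in either direction. Without any 1 other sample it was 24.07% to 28.45%. Counted in either direction, the share of these chains was thus not above that of all genes in every setting. No chain was called higher in any setting. Of the calls over all genes, 65.05% were higher with library totals and 47.85% to 48.99% with 1 sample left out. The shares over all genes thus count rises as well as falls, and those of falls alone were smaller. The chains that did not pass were col2a1b (-0.22), col5a2b (-0.20), col5a3a (-0.02), col11a1b (-0.13) and col27a1a (-0.18).

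A pair of ratios set a called cartilage chain against a type I or type V chain directly, a choice made after the values were seen. The FPKM ratio of col2a1a to col1a1a was 0.944, 0.823 and 0.837 in wild type against 0.800, 0.667 and 0.588 in mutants. The ratio of col11a1a to col5a1 was 3.22, 2.91 and 3.04 in wild type and 2.64, 2.27 and 2.40 in mutants. Every mutant lay below every wild type sample in both, and the exact two-sided permutation p was 0.1 for each log2 ratio, the smallest that 3 against 3 allow. As both cartilage chains had already been called lower, these ratios are a description and not a separate test. Beside this, 16 cartilage cell markers had 9 falls and 2 rises (68.8%, beside 33.2% of all genes called), and their summed FPKM was 1262 to 1274 in wild type and 803 to 952 in mutants. Those with the smallest p were matn1, a matrilin (-1.11), col9a2, a type IX collagen chain (-0.81), epyc, a leucine-rich proteoglycan gene (-0.80), and the chondrocyte regulator sox9b, which rose (0.90), as did sox9a (0.68), all on the log2 scale. The part of cartilage abundance in the fall of col2a1a and col11a1a was not tested.

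**Figure D4:**
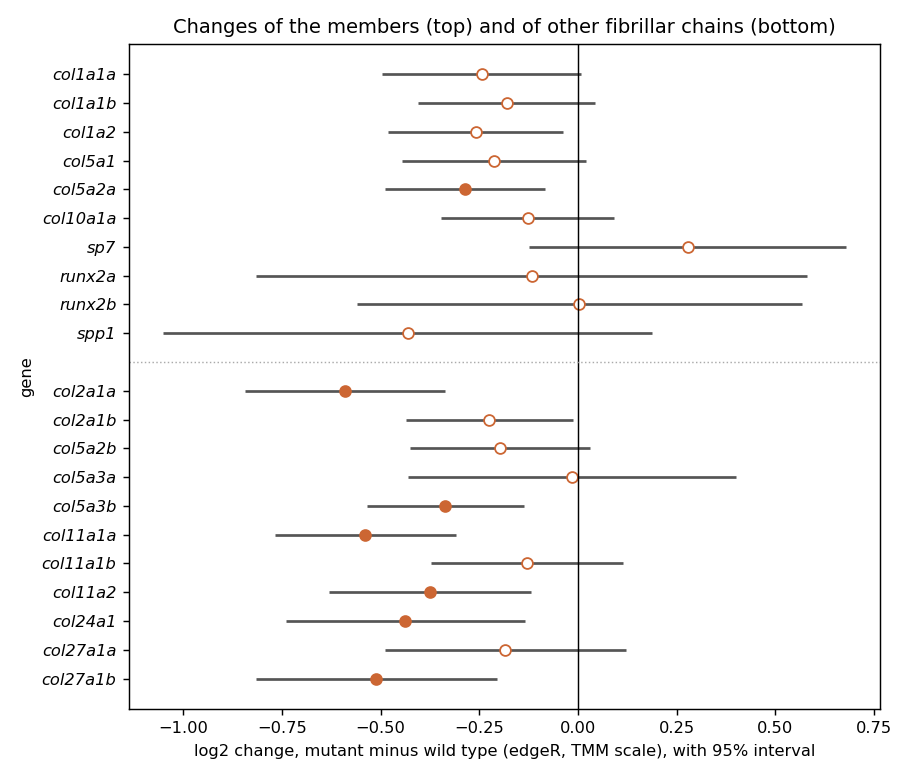
Log2 change (mutant minus wild type, TMM scale) with its 95% interval for the 10 genes (top) and the 11 other fibrillar collagen chains (bottom), filled where the adjusted p is below 0.05. Among the 10, col5a2a alone is filled, at -0.29, and the intervals of runx2a, runx2b and spp1 are the widest. Below, col2a1a (-0.59) and col11a1a (-0.54) lie farthest from 0.

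Of 21 genes for proteins that bind or decorate collagen fibrils, 11 fell (52.4%), and the median log2 change was -0.26 with no rise called. Over all genes, 33.2% were called in either direction and 16.7% were called lower. The falls numbered 3 of 21 with library totals, 13 without wild type a and 6 without any 1 of the other samples. Of all genes, 33.95% were called with library totals and 33.09% without wild type a, in either direction. Without any 1 other sample it was 24.07% to 28.45%. Counted in either direction, the share of this list was thus not above that of all genes in every setting. None of the 21 was called higher in any setting. Of the calls over all genes, 65.05% were higher with library totals and 47.85% to 48.99% with 1 sample left out. The shares of all genes that fell were thus smaller than those printed here. The 4 with the smallest p were postna, a periostin (-0.46, adjusted p 0.00174), thbs4b, a thrombospondin of tendon (-0.44, 0.00215), col16a1, a fibril-associated collagen (-0.35, 0.00849), and sparc, a collagen-binding glycoprotein abundant in bone (-0.44, 0.00893). With library totals col16a1 did not pass (0.0603). For sparc the values were 534, 485 and 473 FPKM in wild type and 380, 392 and 412 in mutants, with no overlap.

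Genes of bone matrix and mineralization changed in both directions. Of 14 tested, 5 fell and 2 rose, 50% in all, beside 33.2% of all genes. With 1 sample left out, 3 to 5 of 14 or 15 tested fell and 1 to 3 rose, where 24.07% to 33.09% of all genes were called. The fewest were without mutant c (3 and 1 of 15, beside 24.92% of all genes called). The gene entpd5a, whose product raises phosphate supply and is required for bone mineralization in zebrafish, had 1.10, 0.76 and 1.23 FPKM in wild type against 3.78, 3.45 and 3.56 in mutants, and rose 3.23-fold (interval 2.46 to 4.24, adjusted p 2.79e-05). The phosphatase gene phospho1, which frees phosphate inside matrix vesicles, rose by 0.59 on the log2 scale (SE 0.16, adjusted p 0.0132 by edgeR) from 6.92 ± 1.48 to 11.2 ± 1.65 FPKM (SD, n = 3 each), a call lost without mutant b (0.0530) or mutant c (0.0660).

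The falls were led by scpp5, a secreted calcium-binding phosphoprotein gene, which had 11.3, 12.1 and 14.9 FPKM in wild type and 2.93, 5.30 and 1.16 in mutants. It fell by 2.12 on the log2 scale (SE 0.32, adjusted p 0.000383). Over the 15 alternatives its log2 change ran from -2.73, without mutant b, to -1.75. The phosphate transporter gene slc20a1b fell 1.65-fold by edgeR (adjusted p 9.1e-05), with 48.7 ± 4.43 FPKM in wild type and 31.8 ± 2.26 in mutants. A pyrophosphate transporter gene, ankhb, fell 1.49-fold (adjusted p 0.00279). The other falls were slc20a1a (-0.43) and sost (-0.34), the latter a Wnt inhibitor made by bone cells in mammals. Leaving out 1 sample raised their adjusted p to as much as 0.126 and 0.105. Their calls were lost in 10 and 9 of 15 alternatives, among them DESeq2 and library totals. The osteoblast genes alpl (log2 change -0.12, adjusted p 0.359) and ifitm5 (0.38, adjusted p 0.0957) did not pass, although ifitm5 did with library totals (0.49, adjusted p 0.0337), and bglap, the osteocalcin gene, was listed at 0 in every sample.

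Regulators of osteoblasts mostly missed the threshold. Of 33 tested, 4 fell and 2 rose, 18.2% in all, beside 33.2% of all genes, and the median log2 change was 0.05. The counts were 1 fall and 1 rise without mutant a, 6 and 1 without wild type a, 3 and 0 without mutant c, 3 and 1 without mutant b or wild type b, and 2 and 1 without wild type c. Of all genes, 33.09% were called without wild type a and 24.07% to 28.45% without any 1 other sample. The falls were atf4b (-0.41), bmp4 (-0.43), ihha (ENSDARG00000058733, -0.69) and mef2ca (-0.32), and the rises were msx2a (0.78) and atf4a (0.27). The homeobox gene msx2a rose from 1.59 ± 0.286 to 2.95 ± 0.202 FPKM (SD, n = 3 each, adjusted p 0.0181), a call lost without wild type a (0.0526) or mutant c (0.0660). The call of bmp4, a bone morphogenetic protein gene, was lost without mutant a (0.0521). Leaving out 1 sample also ended the calls of atf4a (up to 0.200) and mef2ca (up to 0.184), which were lost in 6 and 9 of 15 alternatives. The call of ihha, an Indian hedgehog ligand gene, was lost without mutant a or b or wild type c (0.0524 to 0.0837). Another ihha row (ENSDARG00000097968) was tested and did not pass.

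**Figure D5:**
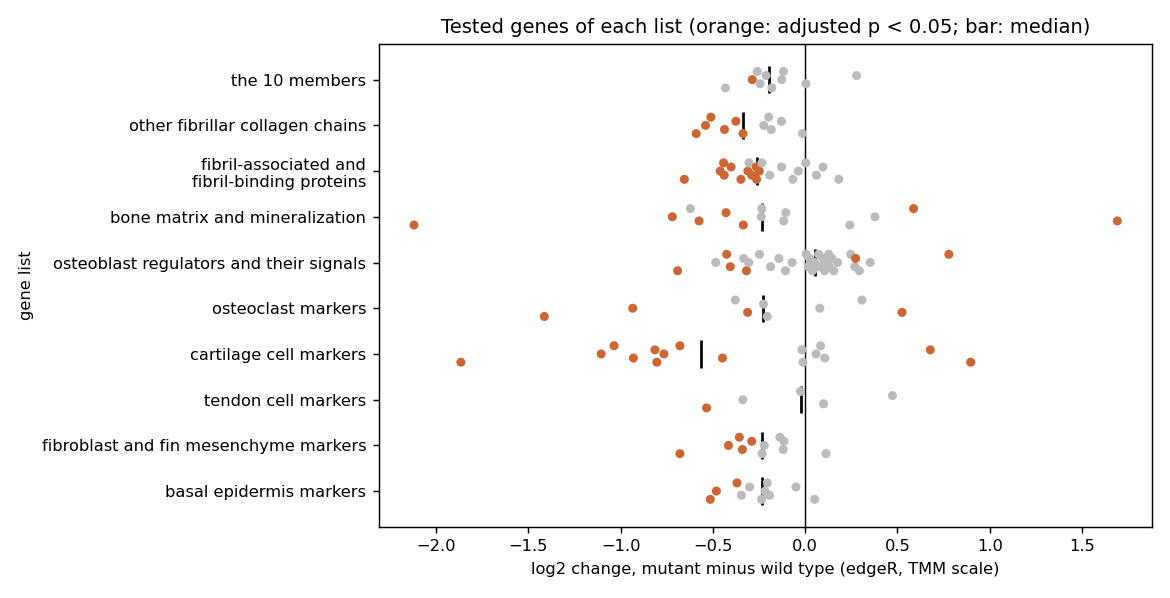
Log2 change (mutant minus wild type, TMM scale) of every tested gene, 1 row per list, with orange points for an adjusted p below 0.05 and a bar for the median. The 10 members lie between -0.43 and 0.28 with 1 orange point, while mineralization genes reach from -2.12 to 1.69 and cartilage markers have a median of -0.56.

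Markers of other cells that make or remodel collagen were read beside the members. Of 11 tested fibroblast and fin mesenchyme genes 5 fell (45.5%, beside 33.2% of all genes called), with summed FPKM of 959 to 987 in wild type and 727 to 853 in mutants. The count was 6 without wild type a, 4 without mutant c, and 3 without wild type c or mutant a or b. It was 2 without wild type b and 2 with library totals. Of all genes, 33.95% were called in either direction with library totals, 33.09% without wild type a and 24.07% to 28.45% without any 1 other sample. The falls were and2, an actinodin of fin rays (log2 change -0.68, adjusted p 0.000513), fap (-0.42), col6a3 (ENSDARG00000077139, -0.36), and1, another actinodin (-0.34), and col6a2 (-0.29). Those of and2 and fap passed in all 15 alternatives, while those of col6a3 and and1 were lost in 9 and that of col6a2 in 10. Another col6a3 row (ENSDARG00000095915) was tested and did not pass. Of 11 tested basal epidermis genes 3 fell and none rose. That was 27.3% called, beside 33.2% of all genes called in either direction and 16.7% called lower. The summed FPKM of this list was 2140 to 2208 in wild type and 1769 to 2078 in mutants. The falls were col17a1a (-0.51), epcam (-0.48) and col7a1 (-0.37, lost in 8 of 15 alternatives), while itgb4 (-0.35, adjusted p 0.0526) did not pass. Without wild type a 6 fell, and without any 1 other sample 2 or 3 fell, beside the shares over all genes given above. Of 5 tendon genes tnmd, the tenomodulin gene, fell (-0.53, adjusted p 0.00443) and none rose, 20.0% called beside the same 33.2% and 16.7%. Without wild type a 2 fell. With all samples, xirp2a (-0.34), scxb (0.47) and scxa (0.10) did not pass. The sums were 29.7 to 31.9 in wild type and 26.6 to 30.5 in mutants. The part of these marker genes in the levels of the type I and type V genes was not tested.

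Osteoclasts, which resorb bone, were followed through 10 genes, 9 of them tested and 44.4% called, beside 33.2% of all genes called. The summed FPKM of the 10 genes was 51.6 to 58.7 in wild type and 49.1 to 55.7 in mutants. The falls were csf1rb (log2 change -0.93, adjusted p 0.00351), acp5b (-1.41, 0.0136, lost without mutant a at 0.0647) and ctsk (-0.31, 0.0263, lost in 8 of 15 alternatives), and nfatc1 rose (0.52, 0.0113, lost without mutant a at 0.0533). Without mutant a 1 gene fell and none rose, beside 24.48% of all genes called. Without mutant b or wild type c 2 fell and 1 rose, beside 24.07% and 28.45% of all genes called. These genes also serve macrophages and other cells in a whole embryo.

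Across the 6 samples, log2 CPM of col1a2 followed that of the other fibrillar members, with Pearson r of 0.96 for col1a1a, 0.94 for col1a1b, 0.97 for col5a2a and 0.77 for col5a1, compared with 0.56 for col10a1a and -0.52 for sp7. Among 15209 other genes with a mean of at least 2 FPKM, those most like col1a2 included CR925773.1, palmda, tm4sf18 and slc35e1 (r of 0.99 or higher). Those most like sp7 were mcama, mars, ptger4b, tmed8 and SYTL2, with r of 0.96 to 0.98. With 6 samples in 2 groups, these values share libraries and the difference between groups, and they are a description.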

How the data were processed

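The authors deposited 1 table with whole-number read counts and FPKM values per gene and sample, exonic gene sizes, coordinates and symbols. The deposited counts were not normalized. The deposited FPKM equal the count scaled by exonic size and by the sample's total count, as recomputed from the table. The submitters' processing notes list, without saying what each did, Salmon 1.9.0, STAR 2.7.10a, fastp 0.23.2 and bcl2fastq 2.20.0.422. The genome build was not given in any source used here, and coordinates are those of the table. The library kit was NEBNext Ultra RNA, per the labels' protocols.

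Counts were tested with edgeR 4.0.16 in R 4.3.3 (quasi-likelihood test, TMM scaling, filterByExpr with a minimum count of 10 and a total of 15, group as the only term), with Benjamini-Hochberg adjustment over 20032 genes at 0.05. SE is the log2 change divided by the square root of F, and 95% intervals use the test's degrees of freedom. The steps were tested on simulated counts. Balances between genes were compared by exact permutation of FPKM ratios. Alternatives were DESeq2 1.42.0, limma 3.58.1 on log2(FPKM + 1) and log2(FPKM + 0.1), scaling, low-count filters, the replicate letter as a block and leaving out each sample. A count of 3 equals 0.176 to 0.201 CPM.

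The 10 members and the 9 other lists (143 symbols, 138 found, some with more than 1 row) were chosen with earlier results of these data known. The text names every member, every other fibrillar chain, the 4 genes with the smallest p in each other list and the 5 genes most like col1a2 or sp7, of which 1 is not reported here. Genes named beyond this were chosen after their values were seen.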

Additional observations from a re-analysis of the deposited data

How the results depend on the processing

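The number of members called lower, 1 with edgeR and TMM scaling, was 3 with DESeq2 and 0 with library totals, totals without the 50 most abundant genes, limma with either pseudocount and the replicate block, and it ranged from 0 to 4 when 1 sample was left out. No setting called a member higher. The 6 collagen genes had a negative log2 change in every setting. The count of calls was 6654 of 20032 genes tested, and 4886 to 6710 of 20269 to 20331 with 1 sample left out, while the share of calls that were higher went from 49.7% to 65.0% with library totals. With the replicate letter as a block, 5356 genes were called and col5a2a lost its call (adjusted p 0.102). The labels do not say whether samples with the same letter are paired. Deviations from the group means correlated at -0.116, -0.0486 and -0.162 for same-lettered samples. For unlike letters the values were -0.00318 to 0.148. With 3 samples per group, these values cannot show whether a letter marks a shared batch. Signs flipped for 3 genes near 0. For runx2a the log2 change was 0.0104 and 0.000365 with limma (pseudocounts 0.1 and 1) and -0.38 to 0.0757 with 1 sample left out. For runx2b it was -0.0253 with the block, -0.000709 with the stricter filter and -0.18 to 0.23 with 1 sample left out. For col5a3a it was 0.0889 with library totals, 0.0474 without the 50 most abundant genes and -0.12 to 0.0617 with 1 sample left out. The mutant minus wild type difference in the runx2b share was -5.49 to 9.60 percentage points with 1 sample left out, and the cause was not tested. Of 757 values for 51 named genes of other lists, 616 kept direction and side of the threshold, 121 lost the call, 15 gained it and 5 changed sign. The alternatives for these genes were added after the data were seen. The members with under 100 counts in every library, sp7, both runx2 genes and spp1, had the widest intervals, and the part of depth was not tested.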
